A study of Mus musculus with 12 samples.

Results

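The heat shock and ubiquitin stress genes described here are 9 of the 55418 genes counted in the brainstem of 12 mouse pups. They are the inducible HSP70 genes *Hspa1a* and *Hspa1b*, the constitutive HSP70 gene *Hspa8*, the HSP70 of the endoplasmic reticulum *Hspa5*, the inducible cytosolic HSP90 gene *Hsp90aa1*, the HSP110 gene *Hsph1*, the HSP40 gene *Dnajb1*, the small heat shock protein gene *Hspb1*, and the polyubiquitin gene *Ubb*. The genes were chosen by name with values from these same libraries in view. Their levels and fold changes are therefore a description, with SDs and SEs. Where a member's place beside the thresholds of a fit of all genes is given, nothing is read from it. The tests below are on other genes of the same pathways. Those were also chosen with earlier results of these data known, so their counts past the thresholds carry the same limit.

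The mice were outbred CFW pups at P15, and each of the 4 groups (saline or morphine, female or male) held 3 of them, each sequenced as its own library. Pups received repeated subcutaneous injections of morphine or saline from the day after birth until the day before death, as a model of neonatal opioid withdrawal, and the morphine pups were in spontaneous withdrawal at collection. The model gives morphine only after birth, to the pup and not to the dam, and the dam of each pup is in no label. The sample labels give brainstem, and the paper medulla and pons, whereas the deposited extraction note names spinal cords.

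Heat shock proteins are chaperones that keep other proteins folded. When unfolded proteins accumulate, the transcription factor HSF1 is released from chaperones, binds heat shock elements upstream of its targets, and raises *Hspa1a*, *Hspa1b*, *Dnajb1*, *Hsph1*, *Hspb1*, and *Hsp90aa1*, while stress in the endoplasmic reticulum raises *Hspa5* through the unfolded protein response. *Ubb* encodes a chain of ubiquitin units that is cleaved to supply free ubiquitin, the tag for proteasomal degradation, and is also stress-inducible. In unstressed brain *Hspa8* and the HSP90 proteins are abundant, and *Hspa1a* and *Hspa1b* are low.

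Total counts ranged from 27850565 to 48097947 per library. Neuron, astrocyte, and oligodendrocyte markers were detected in every group, and the summed level of 5 choroid plexus markers ranged from 4.08 CPM (counts scaled to a common library size after TMM normalization) in saline female 4 to 812 CPM in morphine male 5. Numbers in library names are the replicate numbers of the labels. The library labelled morphine male 6 stood apart from its label. It had 380 CPM of *Xist*, the X inactivation transcript of females, against 0.398 to 2.71 CPM in the other 5 male libraries and 547 to 970 CPM in the females. Its summed level of 4 Y-linked genes (*Ddx3y*, *Eif2s3y*, *Kdm5d*, and *Uty*) was 53.2 CPM, against 232 to 394 CPM in the other males and 0.173 to 1.37 CPM in the females. Fold changes, spreads, and correlations of the members that this library moved most are given also without it. Libraries also differed in how genes of high and low GC content were represented. A GC index was taken for each library as the median log2 deviation of the fifth of genes with the highest GC content minus that of the fifth with the lowest. It was highest in saline male 2 (1.01), saline male 1 (0.79), and morphine male 6 (0.52), and lowest in saline male 3 (-1.04).

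*Hspa1a* and *Hspa1b* are neighbors on chromosome 17 that encode nearly the same protein. Each is a single exon on the minus strand, *Hspa1a* (ENSMUSG00000091971) at chr17:34969190-34972156 and *Hspa1b* (ENSMUSG00000090877) at chr17:34956436-34959238 (GRCm38). Of the 100-base windows of its transcript, 48.6% for *Hspa1a* and 49.9% for *Hspa1b* occur also in a transcript of another gene, mainly of each other. Reads from these windows cannot be assigned to 1 gene, so the split of counts between the pair is uncertain, and the pair is also given as a sum. The gene model *Gm20481* overlaps the *Hspa1a* exon on the opposite strand, and the strand setting of the counting is not given in the sources used here. The other members with windows shared with other gene models were *Hspb1* (44.0%, with *Hsp25-ps1*), *Ubb* (43.6%, mainly *Gm1821*), *Hsp90aa1* (38.0%, mainly *Gm12346*), and *Hspa8* (28.2%, mainly *Gm15459*). *Hspa5*, *Hsph1*, and *Dnajb1* shared none. On GRCm38, *Hspa8* lies at chr9:40800984-40810087 (plus strand), *Hspa5* at chr2:34771970-34777547 (plus), *Hsp90aa1* at chr12:110690605-110702728 (minus), *Hsph1* at chr5:149614287-149636376 (minus), *Dnajb1* at chr8:83608193-83612653 (plus), *Hspb1* at chr5:135887919-135889563 (plus), and *Ubb* at chr11:62551171-62553213 (plus). The counts are over all annotated exons of a gene, untranslated regions included.

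The sequences upstream of the start sites (RefSeq, GRCm38.p6) are shown for the pair because they are almost the same, with the heat shock element in capitals. They are the 250 bases before the start, on the minus strand at chr17:34972157-34972406 for *Hspa1a* and chr17:34959239-34959488 for *Hspa1b*.
Hspa1a: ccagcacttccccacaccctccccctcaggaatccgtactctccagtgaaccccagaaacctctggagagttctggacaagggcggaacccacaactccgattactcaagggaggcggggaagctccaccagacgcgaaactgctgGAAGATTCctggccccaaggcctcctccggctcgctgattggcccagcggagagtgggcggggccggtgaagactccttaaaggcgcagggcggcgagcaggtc
Hspa1b: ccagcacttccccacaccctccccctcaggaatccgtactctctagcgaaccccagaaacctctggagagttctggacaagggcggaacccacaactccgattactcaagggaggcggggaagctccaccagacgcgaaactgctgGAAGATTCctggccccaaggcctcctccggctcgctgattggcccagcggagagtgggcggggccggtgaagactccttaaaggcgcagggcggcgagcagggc
The stretches were 98.8% identical. From 1 at the 5′ end, with the base of *Hspa1a* first, they differed by C44T, T47C, and T249G, none of them in the element GAAGATTC at position -104 from the start.

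The matches found upstream of other members are shown for comparison with the pair, with the matched letters in capitals. *Hspa5* carries an endoplasmic reticulum stress element (chr2:34772025-34772043, plus strand, position -65 from the start), *Hsph1* a heat shock element (chr5:149636362-149636369, minus strand, -33), and *Hspb1* a pair of them within the stretch shown (chr5:135887772-135887859, plus strand). Positions count from the RefSeq starts. For *Hspa5* and *Hsph1* these lie inside the GENCODE spans given above, which begin farther upstream and include the elements, and *Hsph1* has a second RefSeq start, from which its element is at -54.
Hspa5: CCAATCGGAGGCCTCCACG
Hsph1: TTCTCGAA
Hspb1: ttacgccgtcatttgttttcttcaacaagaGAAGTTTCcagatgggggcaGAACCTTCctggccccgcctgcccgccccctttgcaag
The heat shock element was searched on both strands as GAANNTTC or TTCNNGAA in the 250 bases before the start, a stretch that holds 1 or more matches in 12.8% of 32851 promoters. The endoplasmic reticulum stress element, CCAAT and CCACG with 9 bases of any kind between them, was in 0.113%. The windows upstream of *Dnajb1* and *Ubb*, with 2 start sites each, held neither, so the matches did not follow the roles of the genes throughout. A match is a string of letters and no measurement of binding, and no match says only that these letters are not in the window. *Hspa8* and *Hsp90aa1* have no upstream sequence shown here.

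The members differed widely in level (mean ± SD over 12 libraries, in CPM per kilobase of exon). *Hspa8* was the highest at 237 ± 23.8, followed by *Hsp90aa1* at 206 ± 23.8, *Ubb* at 205 ± 66.9, and *Hspa5* at 107 ± 16.0. *Hsph1* stood at 33.2 ± 4.16 and *Dnajb1* at 16.6 ± 3.71. *Hspb1* at 3.13 ± 1.92, *Hspa1b* at 0.706 ± 0.694, and *Hspa1a* at 0.172 ± 0.212 were the lowest. The ranges over libraries of neighbors in this order overlapped, except between *Hspa5* and *Hsph1*, *Hsph1* and *Dnajb1*, and *Dnajb1* and *Hspb1*. Levels per length of the genes with shared windows depend on how shared reads were counted.

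**Figure D1:**
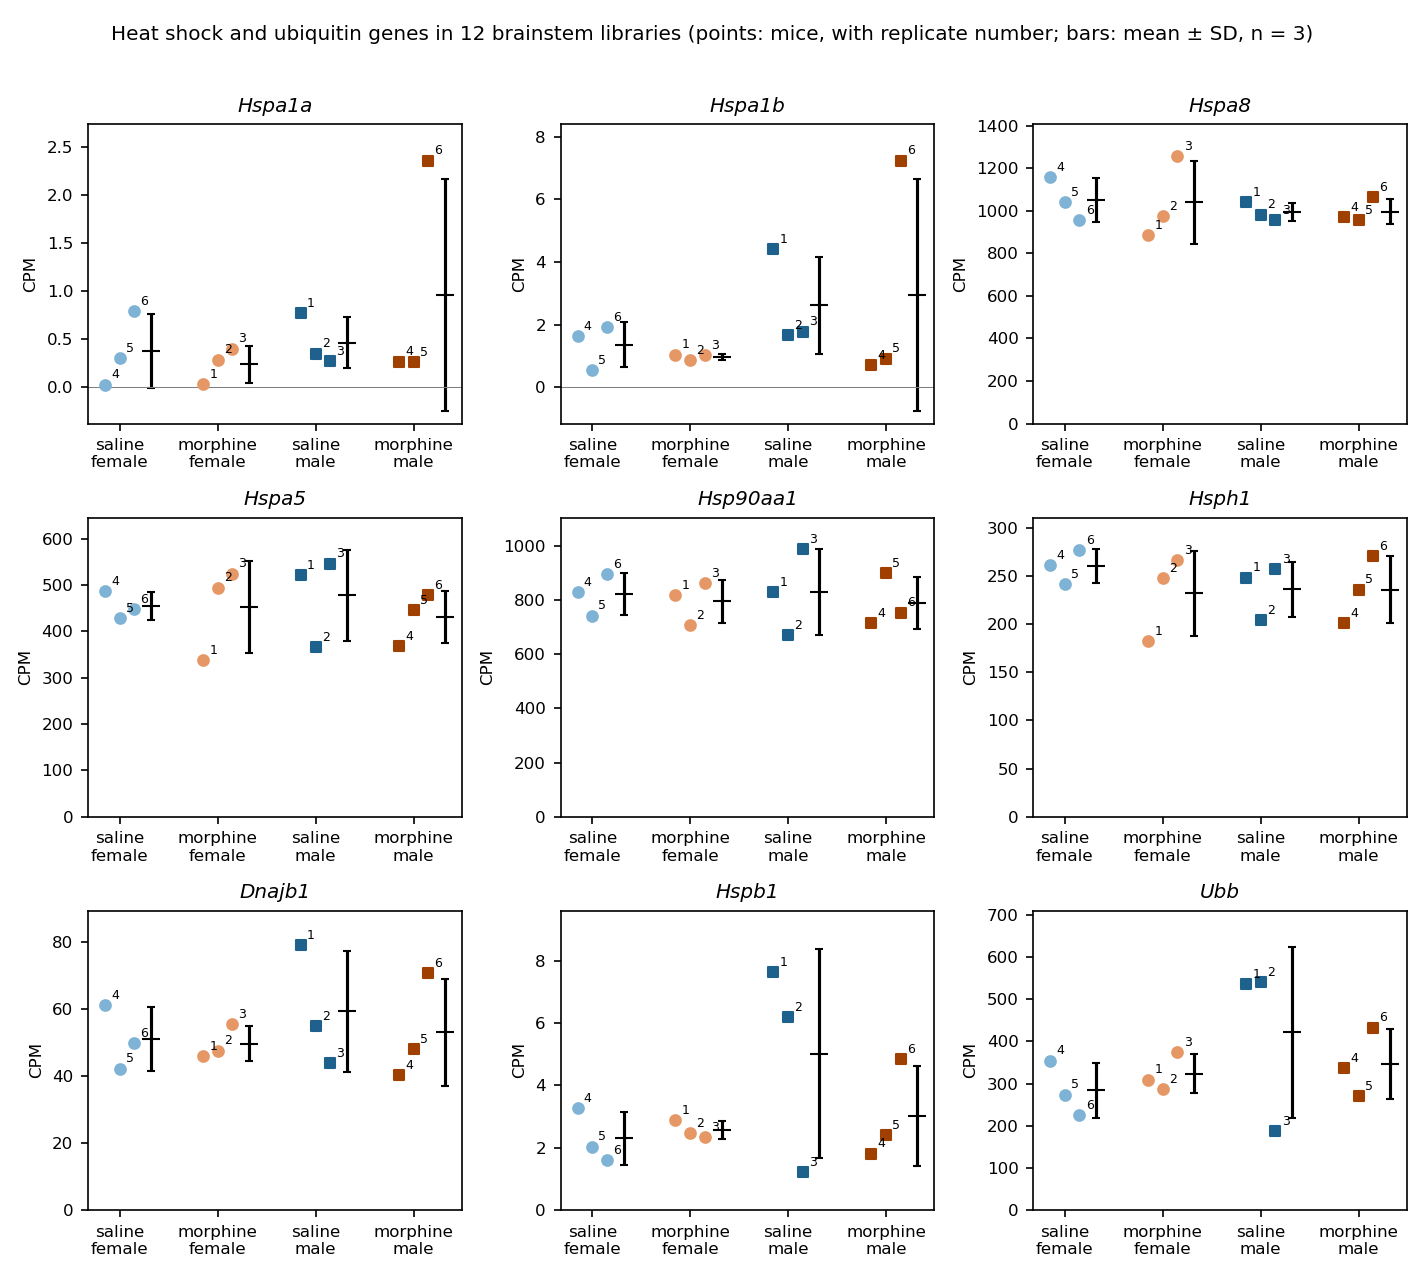
Level of each gene in each library in CPM (linear axes) by group. Points are mice with their replicate numbers, and bars are mean ± SD (n = 3). *Hspa1a* and *Hspa1b* were highest in morphine male 6, and *Ubb* and *Hspb1* in saline males 1 and 2.

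The inducible HSP70 genes were the lowest members, and most libraries held few counts of them. *Hspa1a* had 1 count in saline female 4 and 1 in morphine female 1, and 8 to 28 counts in the other libraries except morphine male 6, which had 80. In CPM, *Hspa1a* was 0.029, 0.304, and 0.793 in saline females 4, 5, and 6 and 0.031, 0.288, and 0.404 in morphine females 1, 2, and 3. It was 0.775, 0.350, and 0.276 in saline males 1, 2, and 3 and 0.268, 0.262, and 2.36 in morphine males 4, 5, and 6. The groups overlapped in both sexes, and the 2.36 CPM of morphine male 6 was apart from every other library. *Hspa1b* was better counted, with 18 to 245 counts. It was 1.63, 0.547, and 1.92 CPM in the saline females and 1.05, 0.865, and 1.03 CPM in the morphine females, in the same order. In saline males 1, 2, and 3 it was 4.41, 1.66, and 1.78 CPM, and in morphine males 4, 5, and 6 it was 0.713, 0.918, and 7.23 CPM. The males were thus led by 1 library in each treatment. The other 2 morphine males lay below all 3 saline males, but with morphine male 6 included the groups overlapped. How many of all genes show such a split was not counted, and nothing is read from it. Summed over the pair, morphine male 6 had 325 counts, saline male 1 had 174, and the other 10 libraries had 28 to 96.

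Of the HSP70 genes that unstressed cells use, *Hspa8*, whose product folds new proteins and uncoats clathrin vesicles, was the steadiest. It ranged from 955 to 1160 CPM in the saline females, 885 to 1258 in the morphine females, 957 to 1040 in the saline males, and 956 to 1064 in the morphine males. *Hspa5* (BiP), the HSP70 that folds secreted and membrane proteins, was 487, 429, and 449 CPM in saline females 4, 5, and 6 and 339, 495, and 525 CPM in morphine females 1, 2, and 3. It was 521, 366, and 547 CPM in saline males 1, 2, and 3 and 368, 446, and 478 CPM in morphine males 4, 5, and 6. Saline and morphine overlapped for both genes in both sexes.

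*Hsph1*, a nucleotide exchange factor of HSP70, was 261, 242, and 277 CPM in the saline females and 182, 248, and 266 CPM in the morphine females. It was 248, 204, and 257 CPM in the saline males and 201, 236, and 271 CPM in the morphine males. *Hsp90aa1*, which matures kinases and steroid receptors, spanned 671 to 987 CPM over the 12 libraries, with both ends in saline males (2 and 3). *Dnajb1*, the HSP40 that hands clients to HSP70, was 61.2, 42.2, and 49.9 CPM in the saline females and 46.0, 47.6, and 55.6 CPM in the morphine females. It was 79.2, 55.0, and 44.0 CPM in the saline males and 40.2, 48.2, and 70.9 CPM in the morphine males, so that its highest values were in saline male 1 and morphine male 6, as for *Hspa1b*.

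*Hspb1* (HSP25), a small heat shock protein that holds unfolded clients and binds actin, was low, with 40 to 283 counts. It was 3.26, 2.04, and 1.61 CPM in the saline females and 2.89, 2.48, and 2.35 CPM in the morphine females. In saline males 1, 2, and 3 it was 7.63, 6.19, and 1.23 CPM, and in morphine males 4, 5, and 6 it was 1.81, 2.39, and 4.84 CPM. *Ubb* followed the same libraries at a much higher level. It was 354, 274, and 224 CPM in the saline females and 310, 287, and 375 CPM in the morphine females. In saline males 1, 2, and 3 it was 535, 541, and 188 CPM, and in morphine males 4, 5, and 6 it was 336, 270, and 433 CPM. For both genes the saline males held the 2 highest libraries and the lowest library of all 12.

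The comparison of morphine with saline asks whether repeated neonatal morphine left a change in brainstem transcripts during withdrawal. None of the 9 members passed the thresholds (p before adjustment below 0.05 and a log2 fold change beyond 0.26 in either direction) in edgeR's quasi-likelihood test of all genes. This held in the sex-combined fit, in either sex, and for the difference between the sexes. Of all genes tested, 1.24% passed in the sex-combined fit (235 of 19027), 1.81% in females (328 of 18109), 2.99% in males (543 of 18166), and 2.94% for the interaction (559 of 19027). By unadjusted p alone 258, 343, 543, and 559 genes passed in these fits, and no member did. In each fit this was a smaller share of the genes tested than the 0.05 given where no gene differs and the model holds. Not passing therefore says little about a member. No gene had a Benjamini-Hochberg adjusted p under 0.05 in the 4 edgeR fits, whereas exactTest gave 0, 3, and 1 in the first 3 and the Wald test of DESeq2 gave 0, 3, 0, and 0 in the 4. Without saline male 3, edgeR gave 2141 genes in males and 1796 for the interaction, and with no filter on low counts 77 in females, no member among them. No member had CPM values that separated morphine from saline, compared with 0.0473% of all genes over both sexes, 5.65% in females, and 9.1% in males. With brain tissue as a whole, fewer cells of a type and less RNA per cell cannot be told apart.

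In the sex-combined fit, the log2 fold changes (morphine minus saline, ± SE) were 0.34 ± 0.75 for *Hspa1a* and -0.12 ± 0.53 for *Hspa1b*. The abundant chaperones moved little, with *Hspa8* at 0.0034 ± 0.090, *Hspa5* at -0.07 ± 0.13, *Hsp90aa1* at -0.05 ± 0.10, *Hsph1* at -0.08 ± 0.11, and *Dnajb1* at -0.09 ± 0.16. For these 5 genes, 2 SEs on either side reached from -0.42 to 0.24 at most. A change of more than 0.42 lay outside that range for each in this fit of all 12 libraries, but not in others. Without morphine male 6 *Dnajb1* was at -0.20 ± 0.16, so that 2 SEs reached beyond -0.42. In males alone, with all libraries, 2 SEs for *Dnajb1* reached from -0.74 to 0.41. *Hspb1* was at -0.29 ± 0.39 and *Ubb* at -0.04 ± 0.23. The median over the members was -0.07, beside -0.02 over all genes tested.

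In females, *Hspa1a* was at -0.68 ± 0.92 and *Hspa1b* at -0.50 ± 0.43. *Ubb* was at 0.19 ± 0.15, *Hspb1* at 0.16 ± 0.27, and *Hsph1* at -0.17 ± 0.14. *Hspa8* (-0.02 ± 0.13), *Hspa5* (-0.01 ± 0.15), *Hsp90aa1* (-0.05 ± 0.11), and *Dnajb1* (-0.04 ± 0.14) lay within 1 SE of 0. In males, the values were 1.06 ± 0.92 for *Hspa1a*, 0.18 ± 0.90 for *Hspa1b*, -0.73 ± 0.66 for *Hspb1*, and -0.28 ± 0.39 for *Ubb*. *Hspa5* (-0.16 ± 0.20), *Hsp90aa1* (-0.08 ± 0.18), *Hsph1* (-0.01 ± 0.17), *Dnajb1* (-0.17 ± 0.29), and *Hspa8* (-0.0025 ± 0.12) lay within 1 SE of 0. The male minus female difference in these fold changes was largest for *Hspa1a* (1.74 ± 1.47), *Hspb1* (-0.88 ± 0.76), *Hspa1b* (0.68 ± 1.09), and *Ubb* (-0.45 ± 0.46), and each lay within 2 SEs of 0. Without morphine male 6 these differences were -0.12 ± 1.34, -1.40 ± 0.77, -1.17 ± 0.73, and -0.64 ± 0.49, so that both HSP70 genes turned in sign. As a sum, *Hspa1a* and *Hspa1b* were at -0.05 ± 0.53 in the sex-combined fit, -0.53 ± 0.40 in females, and 0.35 ± 0.90 in males, and without morphine male 6 at -0.95 ± 0.37 over both sexes and -1.52 ± 0.53 in males.

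Single libraries decided the values of the inducible genes. Without morphine male 6, whose sex markers went against its label, *Hspa1b* was at -0.999 ± 0.40 in the sex-combined fit and -1.69 ± 0.55 in males, past both thresholds in each. *Hspa1a* turned from 1.06 to -0.81 ± 0.58 in males and from 0.34 to -0.72 ± 0.64 in the sex-combined fit. Without morphine male 6 the sex-combined values were -0.45 ± 0.43 for *Hspb1* and -0.13 ± 0.11 for *Hsph1*, neither past the thresholds. In males without this library *Hspb1* was at -1.27 ± 0.73, *Ubb* at -0.49 ± 0.45, *Dnajb1* at -0.44 ± 0.28, and *Hspa5* at -0.25 ± 0.23, none past the thresholds. *Hsph1* (-0.13 ± 0.19), *Hspa8* (-0.06 ± 0.15), and *Hsp90aa1* (-0.06 ± 0.23) stayed near 0. In these fits 242 of 19529 (1.24%) and 462 of 18697 (2.47%) of all genes passed. Leaving out saline male 3 instead put *Hspb1* at -1.15 ± 0.37 and *Ubb* at -0.60 ± 0.18 in males, past both thresholds, and the interaction at -1.35 ± 0.49 and -0.82 ± 0.26. In those fits 28.6% of all genes passed in males (5341 of 18652) and 24.1% for the interaction (4695 of 19472) as well. In females, *Hspa1b* passed without saline female 5 (-0.86 ± 0.31, where 1.27% of genes passed) and *Ubb* without saline female 4 (0.37 ± 0.14, where 7.95% passed).

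**Figure D2:**
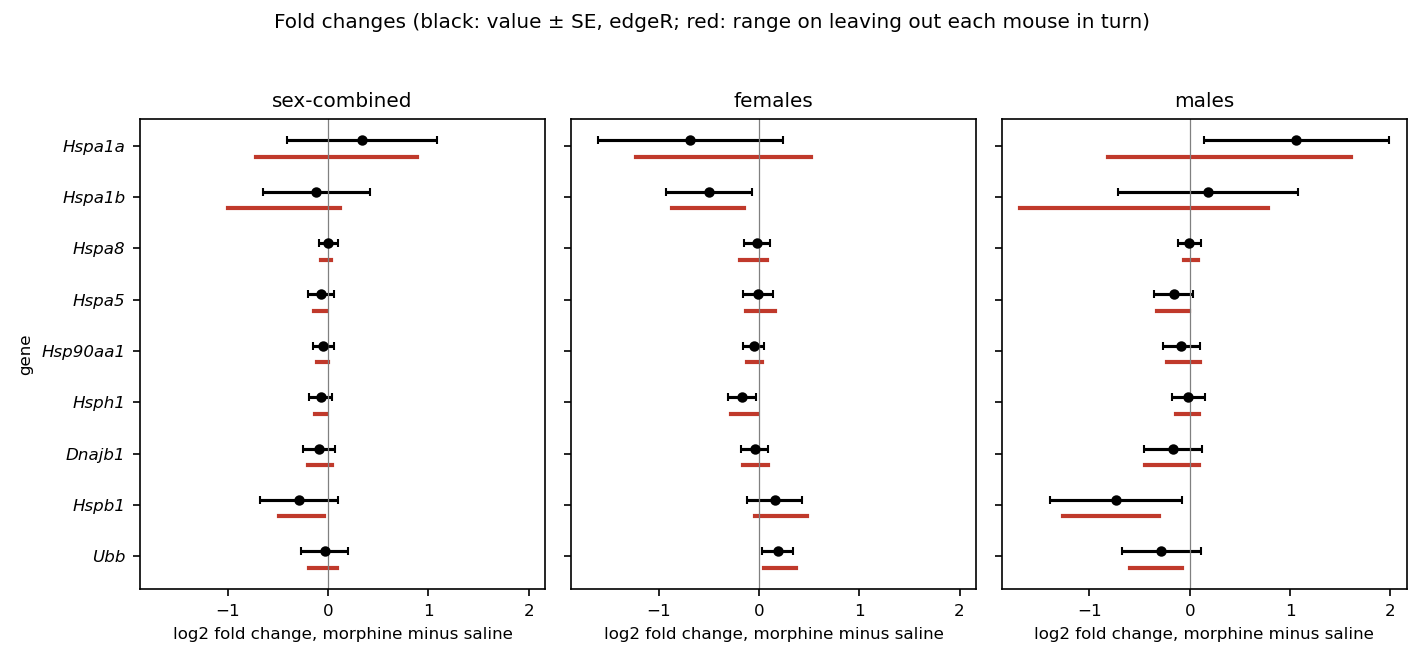
Log2 fold change of morphine against saline (linear axis) for each gene in the sex-combined, female, and male fits. Black points are values ± SE and red bars the range on leaving out each mouse in turn. The bars of *Hspa1a* and *Hspa1b* in males run from -0.81 to 1.61 and from -1.69 to 0.78, and those of *Hspa8* in all 3 fits from -0.18 to 0.09.

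The members differed in their spread between mice. The biological coefficient of variation in the sex-combined fit was 0.85 for *Hspa1a*, 0.61 for *Hspa1b*, 0.46 for *Hspb1*, and 0.28 for *Ubb*. Without morphine male 6 it was 0.66, 0.42, 0.46, and 0.29. With all libraries each of these was higher than in at least 96.5% of the 1000 genes nearest in level. It was 0.21 for *Dnajb1* (82.3%), 0.17 for *Hspa5* (79.6%), 0.15 for *Hsph1* (62.3%), 0.14 for *Hsp90aa1* (54.7%), and 0.13 for *Hspa8* (33.0%). *Hspa1a* and *Hspa1b* were highest in morphine male 6, which was among the 3 highest libraries for 7 of the 9 members, and saline male 1 was among them for 6. Morphine male 4 was among the 3 lowest for 6 members. How many of all genes have these libraries among their 3 highest or lowest was not counted, so this is not read as a trait of the members. Morphine male 6 and saline male 1 were also among the 3 libraries with the highest GC index.

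**Figure D3:**
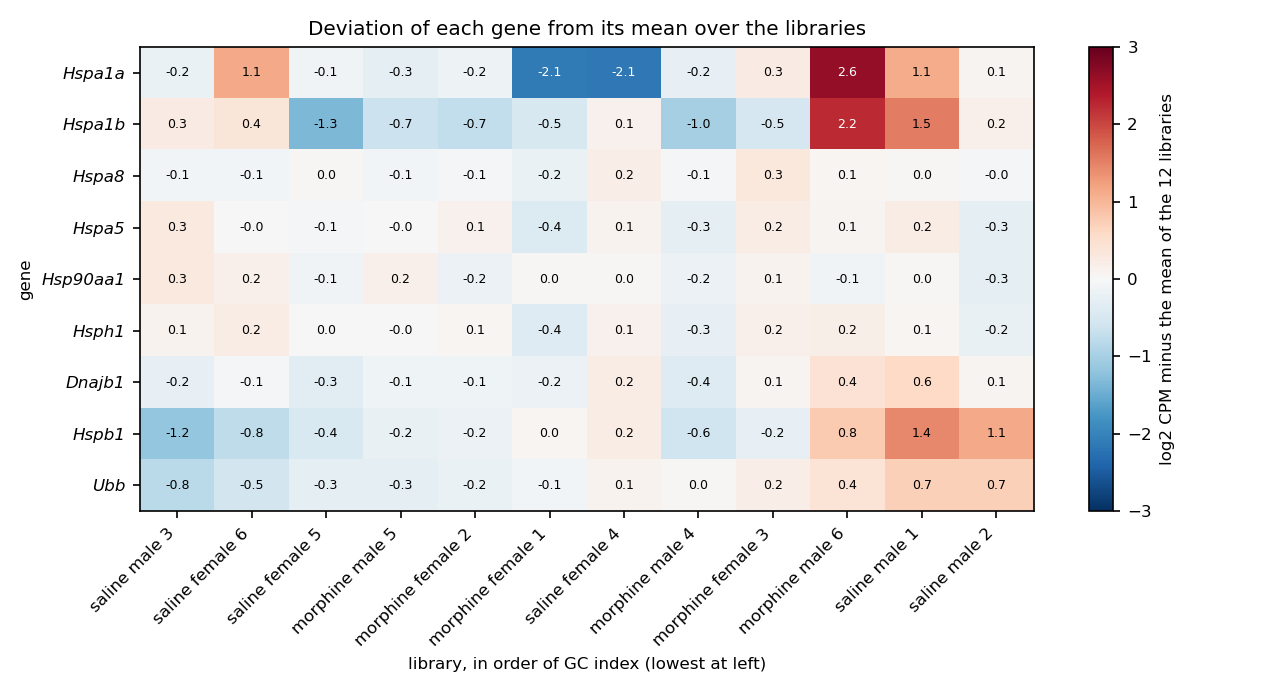
Log2 CPM of each gene (prior count of 2) minus its mean over the 12 libraries, with libraries ordered by GC index from lowest to highest. *Ubb* and *Hspb1* run from blue in saline male 3 to red in saline males 1 and 2, whereas *Hspa1a* and *Hspa1b* are highest in morphine male 6 and *Hspa8* is near 0 throughout.

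Over the 12 libraries the members did not move as 1 block. Correlations of log2 CPM are given as a description over libraries that share GC index, sex, and treatment differences. *Hspb1* and *Ubb* had r = 0.92, *Hspa5* and *Hsph1* r = 0.87, and *Hspa1b* and *Dnajb1* r = 0.84. The rank correlation rho was lower for each, at 0.82, 0.68, and 0.70. Without morphine male 6 the values of r were 0.92, 0.88, and 0.81. With the group means taken out they were 0.92, 0.94, and 0.84. *Dnajb1* also followed *Hspb1* (r = 0.81, 0.78 without morphine male 6, and 0.79 with the group means taken out) and *Ubb* (0.70, 0.68, and 0.69). *Hspa1a* and *Hspa1b*, whose 250 upstream bases were 98.8% identical, had r = 0.62, and 0.33 without morphine male 6. The low counts of *Hspa1a* and the uncertain split of shared reads limit this value, and nothing on their regulation is read from it. *Hsp90aa1* ran opposite to *Ubb* (r = -0.57). Of the 36 pairs of members 28 had a positive r, and the share over pairs of other genes was not counted.

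The GC index tracked *Ubb* and *Hspb1* closely. For *Ubb* (exons 54.1% GC) r with the index was 0.98 and rho 0.99, and for *Hspb1* (61.7% GC) r was 0.93 and rho 0.79. Without the 2 libraries farthest from the median index, saline males 2 and 3, r was 0.98 and 0.90. Within saline mice r was 0.99 for *Ubb* and 0.98 for *Hspb1*, and within morphine mice 0.95 and 0.72. Without morphine male 6 the values over all libraries were 0.98 and 0.92. Such values were common, as 22.1% of 11681 genes had r over 0.9 and 7.82% had r under -0.9. *Dnajb1* (52.7% GC) had r = 0.65 and rho = 0.60. Without saline males 2 and 3 its r was 0.78, and without morphine male 6 it was 0.61. *Hspa1b* (58.1% GC) had r = 0.42 and rho = 0.27. Its r was 0.69 without those saline males, 0.31 without morphine male 6, and 0.34 and 0.89 within saline and morphine mice. *Hspa1a* (58.9% GC) had r = 0.28 and rho = 0.29, with r of 0.38, 0.13, and 0.12 and 0.80 in the same order. Both of these genes had a higher GC content than *Ubb* but a lower r, so the relation was not ordered by GC content alone. *Hspa8* (45.9% GC) had r = 0.24 and rho = 0.51, and r of 0.42 within morphine mice. *Hsp90aa1* (43.7% GC) had r = -0.63 and rho = -0.51, but r was -0.16 without saline males 2 and 3 and -0.61 without morphine male 6, so the relation rests on those libraries. *Hspa5* (45.6% GC, r = -0.25, rho = -0.12) and *Hsph1* (47.3% GC, r = -0.25, rho = -0.11) changed sign without them. No p is given, since the members were chosen with these libraries in view.

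**Figure D4:**
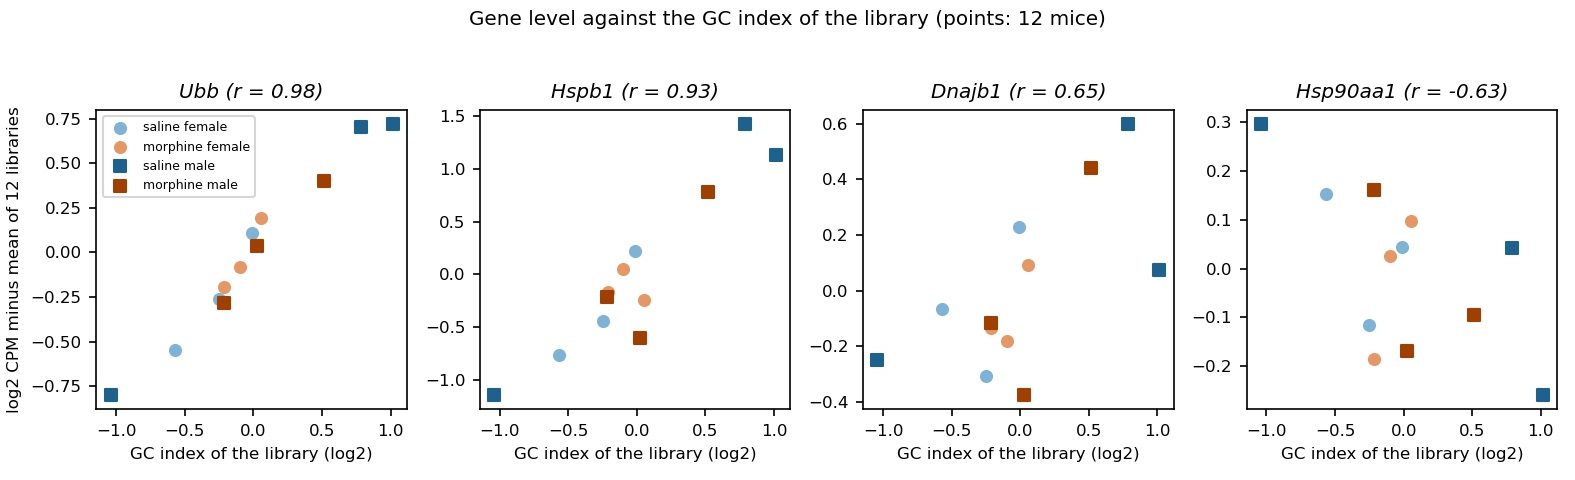
Log2 CPM minus the mean of 12 libraries against the GC index of the library, both in log2 units, for 4 members. Points are mice. *Ubb* and *Hspb1* rise with the index (r = 0.98 and 0.93), *Dnajb1* less closely (0.65), and *Hsp90aa1* falls (-0.63).

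When each library was corrected for its trend with GC content by loess offsets, a setting added after the data were seen, the spread of *Hspb1* fell from 0.46 to 0.24 and that of *Ubb* from 0.28 to 0.18. The spread of *Hspa1a* (0.82) and *Hspa1b* (0.57) stayed high. *Dnajb1* fell from 0.21 to 0.16, *Hspa5* from 0.17 to 0.16, *Hsph1* from 0.15 to 0.13, and *Hsp90aa1* from 0.14 to 0.11. *Hspa8* rose from 0.13 to 0.14, and with the offsets it no longer had the lowest spread. The male fold change of *Hspb1* moved from -0.73 to -0.20 ± 0.32 and that of *Ubb* from -0.28 to -0.15 ± 0.22, while *Hspa1a* was at 1.27 ± 0.80 and *Hspa1b* at 0.28 ± 0.79. With the offsets and without morphine male 6, the spreads were 0.23, 0.18, 0.65, and 0.38, and the male fold changes -0.52 ± 0.33, -0.28 ± 0.25, -0.39 ± 0.54, and -1.37 ± 0.53, for *Hspb1*, *Ubb*, *Hspa1a*, and *Hspa1b* in turn. Other measures moved with some of the high libraries. Saline males 1 and 2 and morphine male 6 were also the libraries with the highest GC index (0.79, 1.01, and 0.52). The marker sums given next were not corrected for the index. The summed level of 5 red cell markers was 472 CPM in saline male 1, and 111 to 264 CPM in the other 11 libraries. That of 9 immediate early genes, which respond to stimulation and handling, was 125, 135, and 111 CPM in saline males 1 and 2 and morphine male 6, against 73.9 to 96.9 CPM in the other 9 libraries. That of 5 motor neuron markers was 52.5, 59.5, and 44.8 CPM in the same libraries, and 24.1 to 41.8 CPM in the others. That of 5 oligodendrocyte markers was 54459 and 56686 CPM in saline males 1 and 2 and 31420 to 46500 CPM in the others, with 39848 CPM in morphine male 6. That of 5 skeletal muscle markers was 30.02 CPM in saline male 2 and 1.26 to 5.38 CPM in the others. Their part in the levels of the members was not tested.

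The genes most like each member, among 11681 genes with a mean of at least 5 CPM, differed by member. *Ubb* was closest to *Slc27a4* (r = 0.996), *Svop*, and *Drg2*, and 20.9% of the genes compared had r over 0.9 with it. *Hspb1* was closest to *1810055G02Rik* (r = 0.99), *Plxdc1*, and *Ankrd54*, with 14.5% over 0.9. *Dnajb1* had 2 genes over 0.9, *Sdf2l1* (r = 0.96) and *Herpud1* (r = 0.94), both of the endoplasmic reticulum stress response, and *Mettl7a1* came next. *Hspa5* and *Hsph1* shared their closest pair, *Manf* (r = 0.93 and 0.91), a secreted factor of the unfolded protein response, and *P4ha1* (0.85 and 0.90), a prolyl hydroxylase of collagen. *Mkks* (0.84) was next for *Hspa5* and *Iars* (0.82) for *Hsph1*. *Hspa8* was closest to *Psmg1* (r = 0.97), a proteasome assembly chaperone, *Lrrc8a*, and *Calr*, and *Hsp90aa1* to *Zfp189* (r = 0.94), *Ift74*, and *Medag*. *Hspa1b* was closest to the HSP40 gene *Dnaja4* (r = 0.86, and 0.91 without morphine male 6), *Csrnp2*, and *Polr3e*. *Hspa1a* had no gene over 0.9, and its closest were *Slc16a13* (0.76), *Zfp629* (0.74), and *Ighm* (0.74). Without morphine male 6 these were 0.73, 0.57, and 0.52.

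Of the 102 other genes of the same pathways reported here, 1 rose in females, 1 fell in males, and none passed in the sex-combined or interaction fits. *Unc45a*, a myosin chaperone that binds HSP90, rose from 12.0 ± 0.66 to 15.4 ± 1.42 CPM in females (SD, n = 3), a log2 fold change of 0.36 ± 0.12 (edgeR, adjusted p = 1.00). The male minus female difference, tested as the interaction in edgeR, did not pass for *Unc45a* (-0.95 ± 0.57, adjusted p = 0.98). In males *Ube2l3*, a ubiquitin-conjugating enzyme, fell from 135 ± 13.5 to 109 ± 2.02 CPM (SD, n = 3), a log2 fold change of -0.31 ± 0.12 (edgeR, adjusted p = 1.00), with 107, 111, and 110 CPM in morphine males and 128, 151, and 127 CPM in saline males. The exons of *Ube2l3* overlap *Ydjc* on the opposite strand, and their reads cannot be told apart where counting ignored strand. The female call was lost in the contrast from 1 fit of all 12 mice, without morphine female 3 (0.29), and with GC offsets (0.22). The male call was lost with exactTest, DESeq2, scaling by total counts, and no filter, and on leaving out any of 5 of the 6 males, including morphine male 6 (-0.32), the exception being saline male 3.

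By list, 1 of 98 companion genes tested passed in females and 1 of 99 in males, beside 1.81% and 2.99% over all genes. With 1 further gene not reported here, these counts are lower bounds for the list as drawn up. That list was chosen with earlier results of these data known, so the counts are not read against those shares. None had an adjusted p under 0.05 in the main fits, and none by exactTest or DESeq2, but 13 did in males and 9 for the interaction without saline male 3. Of 12 HSP90 and cochaperone genes 1 rose in females, and of 14 ubiquitin sources and shuttles 1 fell in males. None passed in either sex among the 7 other HSP70 and HSP110 genes, 11 HSP40 genes, or 7 HSP70 exchange factors and cochaperones. The same held for 8 small heat shock proteins (4 tested in females and 5 in males) and 5 HSF factors and binding partners. It also held for 23 endoplasmic reticulum chaperones and unfolded protein response genes, 9 mitochondrial chaperones and proteases, and 6 oxidative stress genes. The median log2 fold change of the exchange factor list was 0.05 in females and -0.29 in males, and that of the mitochondrial list 0.09 and -0.21. That of the small heat shock proteins was 0.10 and -0.25. Over all genes the median was -0.0058 and -0.06, and over all companions -0.0046 and -0.13. These medians are from the main fits, without GC offsets and with saline male 3 included. For the unfolded protein response list the median was -0.03 and -0.08. No list was tested as a set. Without saline male 3, 31 companion genes passed in males, in a fit where 28.6% of all genes did.

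**Figure D5:**
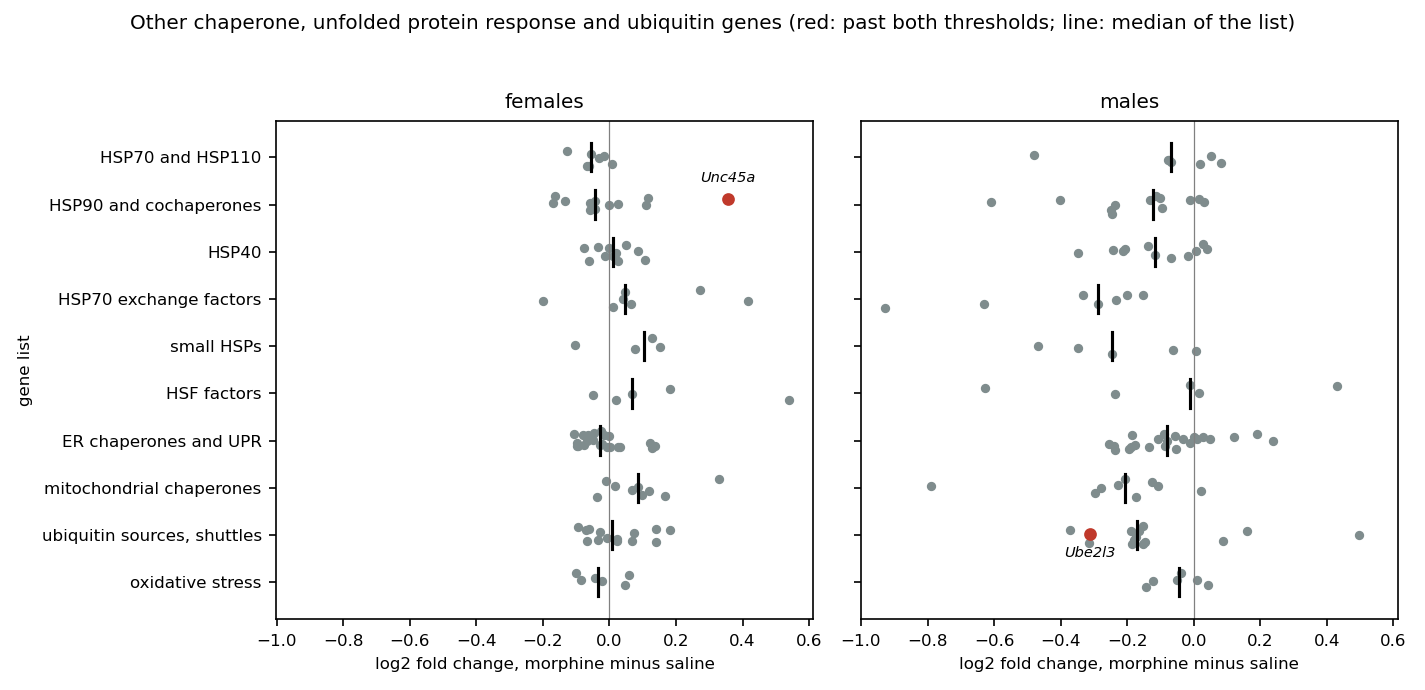
Log2 fold change of morphine against saline (linear axis) for each companion gene by list, in females and males. Red points passed both thresholds, grey points did not, and black lines are list medians. *Unc45a* stands to the right in females and *Ube2l3* to the left in males, while the other genes did not pass.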

How the data were processed

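Brainstem RNA of 12 mice was sequenced by the authors as 100 bp single-end reads on 1 lane, trimmed with Trimmomatic, aligned to mm10 with STAR, and counted on exons with featureCounts. Versions and the settings for strand and shared reads are not given in the sources used here. The deposited values are raw counts per gene as the authors obtained them, whole numbers with totals that differ between libraries. Groups followed the labels. P values set the difference between groups against the spread between 3 or 6 mice per group, taken as independent. The paper divided each litter between saline and morphine, so littermates may be in both treatments. The fits could not take litter into account, since the dam is in no label.

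edgeR 4.0.16 (R 4.3.3) was run on all genes kept by filterByExpr, with TMM normalization and the quasi-likelihood test. The sex-combined fit had sex as covariate, each sex was fitted alone, and the interaction was fitted over all mice. Levels are CPM after TMM, and logs used a prior count of 2. Genes passed with p below 0.05 before adjustment and a log2 fold change beyond 0.26 in either direction. DESeq2 1.42.0, exactTest, other scalings, no filter, the replicate number as a block, and leaving out each mouse were alternatives, and GC offsets (loess span 0.5) were added later. The fits were tested on simulated data.

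The 9 members and the 102 companion genes were chosen with earlier results of these data known, and 1 further gene is not reported here, so that counts of companions past the thresholds are lower bounds for the list as drawn up. All members, the companions that passed, and the 3 genes most like each member are named. Positions, exon lengths, and GC content came from GENCODE M21 (all 55418 symbols matched, 115 to more than 1 gene), and 7 of 9 members had an upstream sequence in RefSeq.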

Additional observations from a re-analysis of the deposited data

Results flagged for a closer look

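Of 22 sets of 6 libraries looked at (11 genes, saline and morphine apart), 4 had 1 library farther from the others than Dixon's 95% value. The values were CPM on a linear scale, and no count was taken on a log scale. For normally distributed values chance gives about 1 in 20, which low and skewed CPM need not follow. The genes were chosen with these libraries in view, share reads in part, and both sexes are pooled, so the count was not compared with that share. *Hspa1a* was 2.36 CPM in morphine male 6, and the next highest morphine library had 0.404 CPM. *Hspa1b* was 7.23 CPM in morphine male 6 against 1.05 CPM in the next, and 4.41 CPM in saline male 1 against 1.92 CPM in the next saline library. *Hspb1* was 4.84 CPM in morphine male 6 against 2.89 CPM in the next. Morphine male 6 is also the library whose *Xist* and Y-linked levels went against its label, and saline male 1 the one with the most red cell marker counts. Whether these are connected was not tested.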

How the results depend on the processing

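Low counts limit *Hspa1a*, and reads shared between near-identical genes limit the split of the HSP70 pair. On leaving out each mouse in turn, members past the thresholds numbered 0 to 1 in the sex-combined fit, 0 to 1 in females, 0 to 2 in males, and 0 to 2 for the interaction, and 0 in every other setting. Companion genes past the thresholds (0, 1, 1, and 0) numbered 0 to 3, 0 to 7, 0 to 31, and 0 to 29, the highest without saline male 3, or in females without saline female 4. With no filter they numbered 1, 3, 2, and 5 in the 4 fits, and with GC offsets 6 in males and 5 for the interaction. In the contrasts from 1 fit of 12 mice they numbered 0 in females and 2 in males, with DESeq2 0 in males and 1 for the interaction, and with exactTest 0 in males. All genes past the thresholds (235, 328, 543, and 559) became 754, 1094, 985, and 1665 with no filter, 1323 in males and 1138 for the interaction with GC offsets, and 218 in females in the fit of 12 mice. Leaving out a mouse gave 198 to 479, 208 to 1482, 253 to 5341, and 290 to 4695. The causes were not tested, except that with no filter more genes were tested. Scaling by total counts moved the share of higher calls from 49.4% to 71.5% in the sex-combined fit, 64.3% to 91.3% in males, and 54.7% to 81.2% for the interaction, and the median over all genes (log2 fold change) from -0.06 to 0.06 in males and from -0.03 to 0.07 for the interaction. Members with a fold change above 0 in males then numbered 5 in place of 2. Saline and morphine share replicate numbers only over both sexes. With the replicate block, 0 members, 0 companion genes, and 189 genes passed, and *Hspa1b* was at -0.35. Same-numbered libraries did not deviate together (r of -0.34 to 0.18), so the numbers were not taken as pairs.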
